A study of Homo sapiens with 9 samples.

Results

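The ETV, SPRY and DUSP genes described here are outputs of ERK signalling, among them inhibitors that feed back on it. They are 10 genes, ETV1, ETV4, ETV5, SPRY1, SPRY2, SPRY4, DUSP1, DUSP4, DUSP5 and DUSP6, out of 19775 with a gene symbol on the array. All probe sets annotated with exactly 1 symbol from this list were taken, which gave 26 of 54675 probe sets. ETV1 and DUSP1 were selected on their log2 differences from wild type on these same arrays, because both were above wild type in both treatments, so these differences are given below as a description with no test. The other 8 belong to the same 3 families, and the list was drawn up with earlier results of these data known. The cells were HEK293, a line derived from human embryonic kidney, and 9 expression arrays, 1 per sample, covered 3 groups of 3. The first group was depleted of MOF with siRNA (knockdown), the next was transfected with a plasmid encoding hMOF (overexpression), and the third was wild type HEK293 with no treatment. MOF, encoded by KAT8, is the acetyltransferase of lysine 16 on histone H4.

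The wild type cells were not transfected, and the double-stranded RNA control that the design mentions is not among the groups analysed here, so transfection and the change in MOF cannot be told apart in either comparison with wild type. The sources used here give neither the promoter of the plasmid nor the siRNA sequence. Whether replicates are separate cultures is not in the labels, and each p-value therefore reflects only how these samples varied, which can be technical.

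When a growth factor binds its receptor, RAS, RAF and MEK activate the kinase ERK, which moves into the nucleus and switches on a set of genes, some of which then damp the pathway. Among those the Sprouty proteins (SPRY) act upstream, between receptor and RAF, and the dual-specificity phosphatases (DUSP) take the phosphates off ERK and the related kinases p38 and JNK. ETV1, ETV4 and ETV5, the PEA3 group of ETS transcription factors, are commonly read as markers of active ERK because CIC, a repressor that ERK removes, holds them down.

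The sequences just upstream of 4 members, DUSP1, ETV1, SPRY2 and DUSP6, are shown. RefSeq promoters (GRCh38.p14) were matched by symbol for 6 of the 10 members, with 14 annotated starts between them. ETV4, ETV5, DUSP4 and DUSP5 had no entry. Each line gives the 250 bases before the outermost annotated start, 5′ to 3′ on the gene's strand, which is the minus strand in all 4 cases. The windows are chr5:172771196-172771445 for DUSP1, chr7:13991426-13991675 for ETV1, chr13:80341127-80341376 for SPRY2 and chr12:89352502-89352751 for DUSP6. Capitals mark the cAMP response element TGACGTCA, its core TGACG on either strand and the TATAAA box in DUSP1, the ETS site CCGGAA and the CIC octamer TGAATGGA in ETV1, and TGACG and CCGGAA in SPRY2. In DUSP6 the ETS site, the CIC octamers and TGACG were searched and none was found, so it has no capitals.
DUSP1: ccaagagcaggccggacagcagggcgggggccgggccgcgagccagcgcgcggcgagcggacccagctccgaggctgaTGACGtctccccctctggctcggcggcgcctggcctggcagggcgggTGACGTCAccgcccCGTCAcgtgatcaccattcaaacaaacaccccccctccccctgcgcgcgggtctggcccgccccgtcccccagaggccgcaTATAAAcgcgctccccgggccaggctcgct
ETV1: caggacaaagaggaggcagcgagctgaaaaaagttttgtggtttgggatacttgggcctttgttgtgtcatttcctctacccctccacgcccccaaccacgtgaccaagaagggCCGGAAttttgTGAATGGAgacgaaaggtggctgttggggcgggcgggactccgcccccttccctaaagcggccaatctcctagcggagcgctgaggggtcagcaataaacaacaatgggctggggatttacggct
SPRY2: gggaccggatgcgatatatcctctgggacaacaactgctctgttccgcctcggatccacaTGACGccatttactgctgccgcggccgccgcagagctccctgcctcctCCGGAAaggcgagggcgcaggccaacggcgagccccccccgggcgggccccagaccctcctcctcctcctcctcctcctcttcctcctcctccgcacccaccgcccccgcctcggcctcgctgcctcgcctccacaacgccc
DUSP6: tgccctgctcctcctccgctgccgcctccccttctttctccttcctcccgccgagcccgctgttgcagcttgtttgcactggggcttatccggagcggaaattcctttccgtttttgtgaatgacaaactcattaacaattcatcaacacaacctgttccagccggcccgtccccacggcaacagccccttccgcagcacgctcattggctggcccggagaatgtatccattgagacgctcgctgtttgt

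The motifs were searched on both strands in windows of the same length over 35116 annotated starts, except TATAAA, which was read on the given strand only. The full element TGACGTCA, which contains the core on each strand, lay 125 to 118 bases before the DUSP1 start and in no other member window. It occurred in 1.65% of all windows. The core TGACG occurred in the windows of 4 of the 6 matched genes, against 24.9% of all genes with a window (21.2% of windows). TATAAA lay 30 to 25 bases before the DUSP1 start, against 6.8% of all windows. The CIC octamers TGAATGAA and TGAATGGA were found in 1 member window, that of ETV1 shown above, and in 2.19% of all windows. In that window the octamer followed an ETS site CCGGAA with 5 bases between them, and CCGGAA was in the windows of 3 of the 6 genes, against 17.2% of all genes with a window (14.5% of windows). Windows of 1 gene can overlap and share a site, as those of ETV1 do, so genes are counted for these motifs. The 6 genes hold 14 windows, against 35116 windows over 27305 genes. The members thus have more windows per gene and more chances of a match. TGANTCA, the AP-1 site, and the CArG box were in none of the 14, against 6.57% and 1.16% of all windows. These matches describe letters in a window and not bound sites.

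The arrays were checked with KAT8, whose brighter probe set averaged 551.6 in knockdown cells, 4695 in overexpression cells and 3318 in wild type cells. The fall in knockdown against wild type passed the test (log2 fold change -2.61, SE 0.17, limma adjusted p = 4.72e-05). The difference of overexpression from wild type did not pass (log2 fold change 0.51, SE 0.17, limma adjusted p = 0.259). The dimmer tested KAT8 probe set also fell in knockdown (log2 fold change -1.58, SE 0.26, limma adjusted p = 0.00296). In overexpression it overlapped wild type (log2 fold change 0.11, SE 0.26, limma adjusted p = 0.91). Of 7 genes fixed as typical of HEK293, 6 were above the filter on dim probe sets in these cells, among them the neurofilament genes NEFL and NEFM. LHX1 was below it. Of 10 markers of blood, endothelial, liver and muscle cells, PECAM1 alone reached it. Signals of the added poly-A controls were 2.22-fold higher on the 6 arrays of replicates 2 and 3 than on the 3 replicate 1 arrays, 1 of each group. The ratio of the 3′ to the 5′ actin control probe sets, a sign of RNA integrity, ran from 1.21 to 1.31 in knockdown, 1.18 to 1.38 in overexpression and 1.39 to 1.43 in wild type. Wild type thus stood apart from both treatments on that ratio, in the same way as the genes that were high in both treatments, and its part in those results was not tested. The matching ratio for GAPDH overlapped between all groups, at 0.996 to 1.11 in knockdown, 0.981 to 1.11 in overexpression and 0.99 to 1.04 in wild type.

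Signals are the authors' MAS5 values, a linear intensity scaled to a common trimmed mean on every array, so levels of different probe sets are not compared. Probe sets were tested where the 9 arrays' mean log2(signal + 1) was at or above the median, a signal of about 188. By that filter 16 of the 26 member probe sets and 8 of the 10 genes were tested, and the brightest tested probe set stood for its gene. ETV4 and SPRY4 did not reach it. ETV5 reached it only through its overexpression arrays, with a mean log2 signal of 7.26 over the other 6 arrays against the filter value of 7.56. DUSP6 was just above it on those 6 arrays, at 7.59. The wild type means of both, 129.8 for ETV5 and 159.5 for DUSP6, lay below the filter signal, so their fold sizes against wild type are uncertain. The other tested probe sets of ETV5 and DUSP6 reached the filter only with their overexpression arrays counted. A call means a limma adjusted p under 0.05 over all 27307 tested probe sets.

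**Figure D1:**
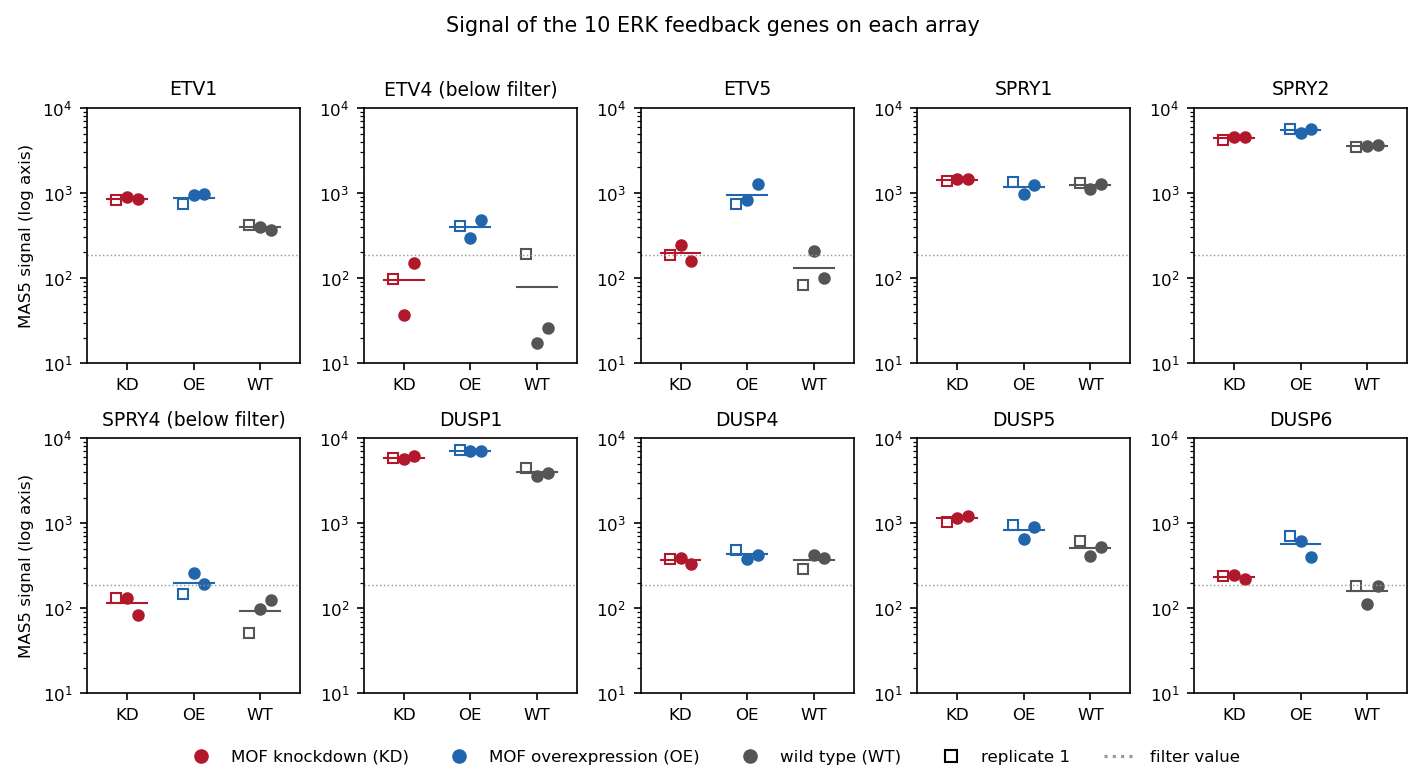
MAS5 signal (log axis) of the brightest probe set of each of the 10 genes on each of the 9 arrays, for knockdown (KD), overexpression (OE) and wild type (WT). Points are arrays, open squares are replicate 1, horizontal bars are group means, and the dotted line is the filter value of about 188. ETV5 and DUSP6 were highest on the 3 overexpression arrays, while ETV1 was at a similar level in both treatments and lower in wild type.

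Overexpression against wild type asks what changed in cells given the MOF plasmid. ETV5 and DUSP6 rose several fold and SPRY2 rose 1.53-fold. The phosphatase genes DUSP4 and DUSP5 and the Sprouty gene SPRY1 did not pass the test. Of the 6 tested members that were not picked for this comparison, 3 rose and none fell. Over all 12036 tested genes 0.631% were called, with 0.457% called higher and 0.174% lower. All 3 overexpression arrays lay above all 3 wild type arrays for 4 of the 6, against 9.85% of all tested genes. The median log2 fold change of the 6 was 0.65, against 0.00032 over all tested genes. All of these counts and the median are descriptions and support nothing about the members, since ETV5 entered the test through its overexpression arrays.

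ETV5, a PEA3 group activator that itself binds ETS sites, had signals of 733.8, 831.2 and 1269.3 in overexpression cells, against 81.8, 206.1 and 101.4 in wild type cells. Every overexpression array was above every wild type array by a wide margin. The rise was 7.62-fold (limma adjusted p = 0.00731, log2 fold change 2.93 with an SE of 0.36, 3 arrays per group). With signals below the filter value raised to it, a setting added after seeing the data, the log2 fold change was 2.24 (limma adjusted p = 0.00146). The log2 difference was 3.15 between the replicate 1 arrays and 2.82 on average between those of replicates 2 and 3. Without overexpression replicate 3 the adjusted p was 0.0569. Its next probe set had 747.9, 595.7 and 950.8 in overexpression cells, against 126.1, 50.2 and 21.4 in wild type cells. That set rose by 3.84 in log2 (SE 0.51, limma adjusted p = 0.00935). Both of these sets entered the test through their overexpression arrays, so their results are descriptions. Of 3 dimmer ETV5 probe sets below the filter, 2 also had all overexpression arrays above wild type, and 1 overlapped between the groups. The wider of these gaps was 418.7, 384.2 and 277.4 in overexpression cells, against 14.6, 14.1 and 12.2 in wild type cells, and that set passed in a fit with no filter, in which 0.196% of probe sets were called (log2 fold change 4.61, limma adjusted p = 0.0133).

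ETV4, a close relative of ETV5, was dim in wild type cells and stayed below the filter. Its dimmer probe set had 188.1, 147.0 and 155.0 in overexpression cells, against 10.7, 13.4 and 11.3 in wild type cells. The groups did not overlap, and in the fit with no filter this set rose by 3.68 in log2 (SE 0.59, limma adjusted p = 0.0285). The brighter ETV4 probe set had 406.2, 297.8 and 482.8 in overexpression cells, against 190.7, 17.3 and 25.7 in wild type cells. It did not pass (log2 fold change 3.10, SE 0.81, limma adjusted p = 0.228 with no filter), and the wild type replicate 1 array was its high value in that group. Without that array it passed (log2 fold change 4.14, limma adjusted p = 0.0438). Signals this low make the fold sizes of ETV4 uncertain.

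DUSP6, the cytoplasmic phosphatase that acts chiefly on ERK, had 704, 616.5 and 398.5 in overexpression cells, against 183.6, 113.4 and 181.4 in wild type cells. The lowest overexpression array was above the highest wild type array. The rise was 3.56-fold (limma adjusted p = 0.0195, log2 fold change 1.83 with an SE of 0.29, 3 arrays per group), with log2 differences of 1.93 for replicate 1 and 1.78 for replicates 2 and 3. With the same floor the log2 fold change was 1.56 (limma adjusted p = 0.00955). A further tested probe set rose by 1.95 (SE 0.32, limma adjusted p = 0.0231). It reached the filter only with its overexpression arrays counted, so its result is a description. The call of the brightest set ended without overexpression replicate 1, overexpression replicate 2, wild type replicate 2 or wild type replicate 3, with adjusted p of 0.0816, 0.0795, 0.0751 and 0.0577.

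SPRY2, a Sprouty protein that blocks RAS activation downstream of receptors, had 5656.5, 5074.7 and 5603.2 in overexpression cells, against 3461.3, 3540.9 and 3641.3 in wild type cells. The spread within each group was small beside the gap between them. It rose by 0.62 in log2 (SE 0.09, limma adjusted p = 0.0115), by 0.71 for replicate 1 and 0.57 for replicates 2 and 3. Its call ended without overexpression replicate 3 (adjusted p = 0.0969) or wild type replicate 2 (adjusted p = 0.0664). SPRY4, another Sprouty gene, was below the filter, with 147.9, 257.8 and 193.3 in overexpression cells, against 51.4, 98.9 and 126.3 in wild type cells. Its groups did not overlap, and it did not pass with no filter (log2 fold change 1.16, SE 0.49, limma adjusted p = 0.51).

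DUSP5, a nuclear phosphatase specific for ERK, had 941.7, 646.9 and 911.3 in overexpression cells, against 621.1, 407.4 and 526.2 in wild type cells. The groups just separated, and the difference did not pass (log2 fold change 0.69, SE 0.20, limma adjusted p = 0.2). SPRY1 had 1333.2, 978.9 and 1256.7 in overexpression cells, against 1305.8, 1126.1 and 1263.6 in wild type cells. These overlapped, and the 95% interval of its log2 fold change ran from -0.37 to 0.25. DUSP4, a nuclear phosphatase, had 489.7, 379.3 and 429.3 in overexpression cells, against 292.3, 427.2 and 388.5 in wild type cells, and did not pass (log2 fold change 0.24, SE 0.21, limma adjusted p = 0.702). Its other tested probe set differed from this. It had 420.2, 446.2 and 488.6 in overexpression cells, against 240.8, 159.7 and 212.7 in wild type cells, with no overlap, and it did not pass either (log2 fold change 1.16, SE 0.35, limma adjusted p = 0.224).

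**Figure D2:**
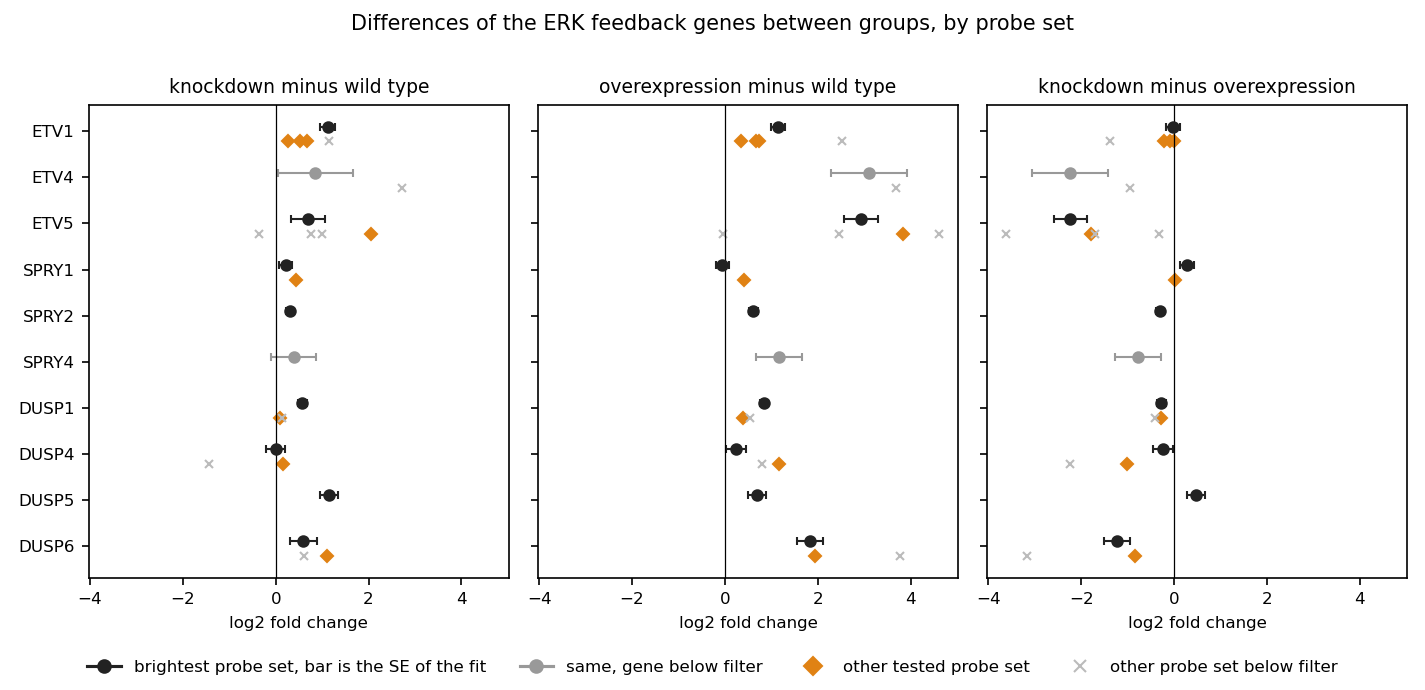
Log2 fold change of each gene between groups, on the log2(signal + 1) scale. Circles are the brightest probe set with its standard error, grey where the gene was below the filter, diamonds are other tested probe sets and crosses those below the filter. ETV5 stands at 2.93 for overexpression against wild type and at -2.23 for knockdown against overexpression.

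Knockdown against wild type asks the same of cells given siRNA against MOF. DUSP5 rose 2.23-fold and SPRY2 rose 1.25-fold, while SPRY1, DUSP4 and the brightest probe sets of ETV5 and DUSP6 did not pass. Of the 6 tested members not picked for this comparison, 2 rose and none fell. Over all tested genes 19.4% were called, 6.7% higher and 12.7% lower. All 3 knockdown arrays lay above all 3 wild type arrays for 4 of the 6, against 15.2% of all tested genes. The median of the 6 was 0.46, against -0.04 over all tested genes. These counts and the median are descriptions as well, because the members were chosen with earlier results of these data known.

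DUSP5 had 1049, 1167.2 and 1202.3 in knockdown cells, against 621.1, 407.4 and 526.2 in wild type cells. All knockdown arrays were well above all wild type arrays. The log2 fold change was 1.15 (SE 0.20, limma adjusted p = 0.00373), with differences of 0.76 for replicate 1 and 1.35 for replicates 2 and 3. It passed without any 1 array, its adjusted p running from 0.00289 to 0.0199 over the 9 fits. SPRY2 had 4243.3, 4518.7 and 4503.7 in knockdown cells, against 3461.3, 3540.9 and 3641.3 in wild type cells. The groups did not overlap, and SPRY2 rose by 0.32 in log2 (SE 0.09, limma adjusted p = 0.0309). That call ended in 6 of 9 fits on 8 arrays, those without knockdown replicate 2, knockdown replicate 3, overexpression replicate 3 or any wild type replicate, with adjusted p from 0.0521 to 0.103.

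ETV5 had 186.6, 247.1 and 160 in knockdown cells, against 81.8, 206.1 and 101.4 in wild type cells. The groups overlapped, and its brightest probe set did not pass (log2 fold change 0.70, SE 0.36, limma adjusted p = 0.217). The next ETV5 probe set had 230, 188 and 237 in knockdown cells, against 126.1, 50.2 and 21.4 in wild type cells, and it rose by 2.05 (SE 0.51, limma adjusted p = 0.021). DUSP6 split in the same way between probe sets. The brightest had 239.2, 247.2 and 223.4 in knockdown cells, against 183.6, 113.4 and 181.4 in wild type cells, without overlap and without passing (log2 fold change 0.60, SE 0.29, limma adjusted p = 0.182). The next had 199.2, 316 and 328.4 in knockdown cells, against 133.8, 83.8 and 184.5 in wild type cells, and rose by 1.10 (SE 0.32, limma adjusted p = 0.0384). With signals raised to the filter value the brightest sets had log2 fold changes of 0.087 for ETV5 and 0.33 for DUSP6, and neither passed. For both genes the call in knockdown thus depended on which probe set was read. The sets that passed reached the filter only with their overexpression arrays counted. All their wild type signals lay below the filter value, so both rises are descriptions of uncertain size.

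The dimmer ETV4 probe set had 64.3, 97.5 and 92.4 in knockdown cells, against 10.7, 13.4 and 11.3 in wild type cells. With no filter it rose by 2.73 in log2 (SE 0.59, limma adjusted p = 0.0178), in a fit that called 5.87% of probe sets. The brighter ETV4 set, at 96.4, 37.1 and 148.5 in knockdown cells against 190.7, 17.3 and 25.7 in wild type cells, overlapped between the groups and did not pass (limma adjusted p = 0.652). SPRY4 had 131, 131.1 and 84.3 in knockdown cells, against 51.4, 98.9 and 126.3 in wild type cells, which overlapped (limma adjusted p = 0.753 with no filter). SPRY1 had 1379.4, 1473.1 and 1442.8 in knockdown cells, against 1305.8, 1126.1 and 1263.6 in wild type cells. All its knockdown arrays were higher, by a small amount that did not pass (log2 fold change 0.22, SE 0.14, limma adjusted p = 0.323). DUSP4 had 378.9, 389 and 328.7 in knockdown cells, against 292.3, 427.2 and 388.5 in wild type cells, and its 95% interval ran from -0.46 to 0.46.

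ETV1 and DUSP1, picked for standing above wild type in both treatments, are described next with no test. ETV1, the third PEA3 group factor, had 836.9, 902.5 and 841.8 in knockdown cells, 738.4, 939.1 and 964.7 in overexpression cells, and 420.3, 401 and 367.4 in wild type cells. Both treatments lay above wild type on every array. The log2 fold change was 1.12 (SE 0.16) in knockdown and 1.14 (SE 0.16) in overexpression. Its 3 other tested probe sets gave smaller differences, from 0.26 to 0.67 in knockdown and from 0.35 to 0.73 in overexpression. The set with the smallest differences overlapped wild type in both treatments, and another overlapped it in knockdown. DUSP1, an immediate early nuclear phosphatase of p38, JNK and ERK, had 5822, 5730.1 and 6204.2 in knockdown cells, 7312.1, 6984.6 and 7155.4 in overexpression cells, and 4412.4, 3620.9 and 3950.2 in wild type cells. Here the 3 groups were separate, with overexpression highest and wild type lowest. The log2 fold change was 0.57 (SE 0.09) in knockdown and 0.84 (SE 0.09) in overexpression. A dimmer tested DUSP1 probe set overlapped between the groups in both comparisons, with 0.10 (SE 0.38) in knockdown and 0.39 (SE 0.38) in overexpression.

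Knockdown against overexpression compares the treatments directly, and all 8 tested members enter it. Knockdown cells received siRNA and overexpression cells a plasmid, so what was delivered and the change in MOF cannot be told apart here either. ETV5, DUSP6 and SPRY2 were lower in knockdown, and none was higher. Over all tested genes 18.4% were called, 6.22% higher and 12.1% lower. All knockdown arrays lay below all overexpression arrays for 4 of the 8, against 23.7% of all tested genes. The median of the 8 was -0.26, against -0.05 over all tested genes. Here too the counts and the median are descriptions only, because ETV5 entered the test through the overexpression arrays, where it is high.

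ETV5, at 186.6, 247.1 and 160 in knockdown cells against 733.8, 831.2 and 1269.3 in overexpression cells, fell by 2.23 in log2 (SE 0.36, limma adjusted p = 0.00294). It passed whichever array was left out, with the filter kept as set on all 9 arrays. Its next probe set fell as well, by 1.79 (SE 0.51, limma adjusted p = 0.0385). Both sets entered the test through the overexpression arrays, where they are high, so these results are descriptions. DUSP6, at 239.2, 247.2 and 223.4 in knockdown cells against 704, 616.5 and 398.5 in overexpression cells, fell by 1.23 (SE 0.29, limma adjusted p = 0.0159). Its next probe set did not pass (log2 fold change -0.85, SE 0.32, limma adjusted p = 0.1). The DUSP6 call ended without knockdown replicate 3 (adjusted p = 0.0556), without overexpression replicate 1 (adjusted p = 0.057) and without overexpression replicate 2 (adjusted p = 0.0555). SPRY2 fell by 0.30 (SE 0.09, limma adjusted p = 0.0411), and that call stood in only 2 of 9 fits on 8 arrays, those without overexpression replicate 2 or wild type replicate 1, and the adjusted p reached 0.137 without overexpression replicate 3.

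In its brightest probe set DUSP1 was lower in knockdown than in overexpression on every array, but the difference did not pass (log2 fold change -0.27, SE 0.09, limma adjusted p = 0.073). With the replicate number as a block it did (adjusted p = 0.0169), in a fit that called 32.6% of all tested genes. The other tested DUSP1 probe set overlapped between the treatments (log2 fold change -0.29, SE 0.38, limma adjusted p = 0.665). ETV1 did not pass (limma adjusted p = 0.938), and the 95% interval of its log2 difference ran from -0.37 to 0.32. DUSP5 was the member whose knockdown signals were above its overexpression signals by most, with a log2 fold change of 0.47 (SE 0.20) that did not pass (limma adjusted p = 0.14). For SPRY1 the difference was 0.28 (SE 0.14, limma adjusted p = 0.215) and for DUSP4 -0.24 (SE 0.21, limma adjusted p = 0.495). In the other tested DUSP4 probe set every knockdown array was below every overexpression array. Its log2 fold change was -1.01 (SE 0.35, limma adjusted p = 0.0819), which did not pass either.

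By pattern over the 9 arrays, the genes most like ETV1 among 12028 other tested genes were GADD45B, a growth arrest and stress protein (Pearson's r = 0.99), ID1, an inhibitor of basic helix-loop-helix factors (0.98), and SLC30A1, a zinc exporter (0.97). GADD45B stood at 976.6, 1050.3 and 1076.9 in knockdown cells, 927.1, 1183.3 and 1058 in overexpression cells, and 478, 432.8 and 434.9 in wild type cells. As with ETV1, both treatments were close together and above wild type. For DUSP1 the nearest were the immediate early gene IER2 (0.98), the splicing factor gene SRSF6 (0.97) and SPRED2 (0.97), which encodes a Sprouty-related inhibitor of RAF activation. For DUSP6 they were RASGRP2, an exchange factor of the RAS family (0.96), the stress factor ATF3 (0.96) and UTP14A, a protein of ribosome assembly (0.95). RASGRP2 stood at 700.9, 751.8 and 653.9 in knockdown cells, 1215.6, 1186.6 and 999 in overexpression cells, and 713.4, 610.9 and 708.2 in wild type cells. It was thus high in overexpression alone, with knockdown and wild type overlapping. These correlations are descriptions over 9 points that share 3 groups.

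The rest of the ERK pathway was read from lists of genes, whose counts stand beside the shares called over all tested genes, 19.4% in knockdown against wild type, 0.631% in overexpression against wild type and 18.4% in knockdown against overexpression. At 0.631% a list of these sizes would hold few or no calls, so a count of none says nothing about the list. The lists were chosen with earlier results of these data known, so their counts and medians are descriptions. Of 28 tested genes of the cascade itself (receptors, adaptors, RAS, RAF, MEK, ERK and the kinases under ERK), none was called in overexpression against wild type, where 2 had an unadjusted limma p under 0.05. In knockdown against wild type 2 rose, MKNK2 and KSR1. MKNK2, a kinase activated by ERK that phosphorylates a translation factor, rose by 0.84 in log2 (SE 0.08, limma adjusted p = 0.000234). KSR1, a scaffold for RAF and MEK, rose by 0.48 (SE 0.14, limma adjusted p = 0.0454), a call that ended in 6 of 9 fits on 8 arrays, those without overexpression replicate 3, wild type replicate 2, wild type replicate 3 or any knockdown replicate (highest p 0.15 after adjustment). The cascade list's median log2 fold change was 0.04 in knockdown and -0.03 in overexpression, against -0.04 and 0.00032 over all tested genes. In knockdown against overexpression 3 were higher, MKNK2 by 0.88 (SE 0.08), the receptor gene FGFR2 by 0.52 (SE 0.08) and the adaptor gene SHC1 by 0.48 (SE 0.14). The SHC1 call stood only without overexpression replicate 1 or wild type replicate 1 and ended in the other 7 fits on 8 arrays (highest p 0.132 after adjustment).

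Of 11 tested genes that restrain RAS or ERK by other means, 4 rose in knockdown against wild type and 1 in overexpression. SPRED2 was called in both, by 0.45 (SE 0.10, limma adjusted p = 0.0124) in knockdown and by 0.68 (SE 0.10, limma adjusted p = 0.0139) in overexpression. The other 3 in knockdown were ERRFI1, an inhibitor of EGF receptors (0.60, SE 0.11), PEBP1, which binds RAF (0.62, SE 0.12), and RGS2, which speeds the shut-off of G proteins (0.50, SE 0.12). The overexpression call of SPRED2 ended without overexpression replicate 1, overexpression replicate 3, wild type replicate 2 or wild type replicate 3 (highest p 0.101 after adjustment), and that of RGS2 without knockdown replicate 1, wild type replicate 2 or wild type replicate 3 (highest p 0.0721 after adjustment). The list's median was 0.24 in knockdown and -0.01 in overexpression. Of 6 other DUSP phosphatases of MAP kinases 1 was called, DUSP9 in knockdown (0.68, SE 0.19, limma adjusted p = 0.0339), and its overexpression value of 0.70 (SE 0.19) did not pass (limma adjusted p = 0.166). DUSP7, DUSP8 and DUSP10 passed in no comparison, and of the 6 genes 2 had an unadjusted limma p under 0.05 in overexpression against wild type. The DUSP9 call ended in 6 of 9 fits on 8 arrays, those without overexpression replicate 3, wild type replicate 2, wild type replicate 3 or any knockdown replicate (highest p 0.121 after adjustment).

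Of 11 other genes that ERK is known to switch on, 4 rose in overexpression against wild type, EGR1, FOS, FOSL1 and IER3, and none fell. FOS lies outside the rule for named genes and is given because the count is small, at 3.82 in log2 fold change (SE 0.62, limma adjusted p = 0.0223). FOS reached the filter only with its overexpression arrays counted, so its result is a description. In knockdown 5 rose and 3 fell. EGR1, an immediate early zinc finger factor, went opposite ways against wild type, by -1.76 (SE 0.16, limma adjusted p = 0.000143) in knockdown and by 2.24 (SE 0.16, limma adjusted p = 0.000226) in overexpression. FOSL1, a FOS family factor, rose in both, by 1.46 (SE 0.21) in knockdown and by 1.22 (SE 0.21) in overexpression, and the overexpression call was lost whichever array was left out (adjusted p from 0.0529 to 0.138). IER3 rose by 0.77 (SE 0.10) in knockdown and by 0.68 (SE 0.10) in overexpression, where its call ended without overexpression replicate 3, wild type replicate 2 or wild type replicate 3 (highest p 0.0685 after adjustment). MYC fell by 0.68 (SE 0.10) in knockdown. The list's median was 0.38 in knockdown and 0.38 in overexpression. As for the other lists, its counts and medians are descriptions.

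**Figure D3:**
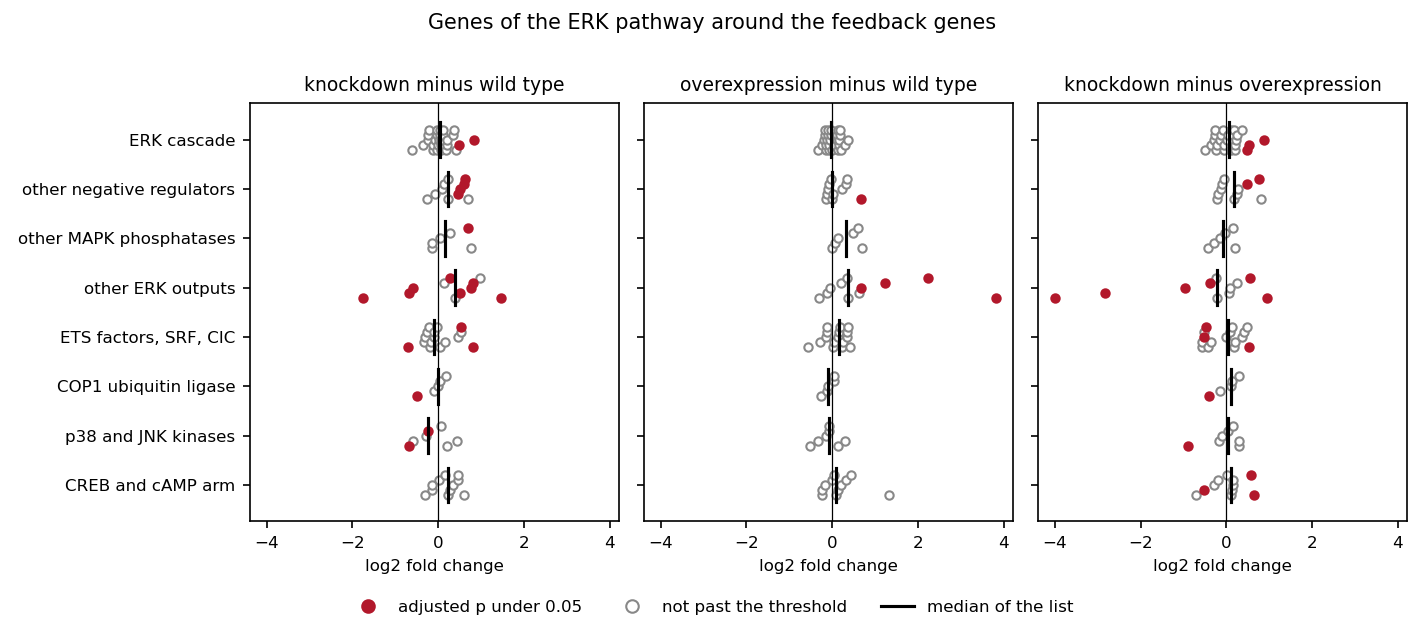
Log2 fold change of the tested genes of each pathway list in the 3 comparisons, 1 point per gene, with filled points past the adjusted threshold of 0.05 and vertical bars at list medians. In overexpression against wild type, 4 of the 11 other ERK outputs were called, against 0.631% of all tested genes. None of the 28 cascade genes was called, which at that share says nothing about them. The lists were chosen with earlier results of these data known, so the counts are descriptions.

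The ETS factor list, which also holds SRF and the repressor CIC with its partners, had 16 tested genes. In overexpression against wild type none was called and 2 had an unadjusted limma p under 0.05, while in knockdown 2 rose and 1 fell, close to the 19.4% called over all tested genes. ERF, an ETS repressor that ERK drives out of the nucleus, rose by 0.81 in knockdown (SE 0.17, limma adjusted p = 0.00903), and ELK4, a partner of SRF, by 0.54 (SE 0.11, limma adjusted p = 0.00937). The gene that fell, ELK3, lies outside the rule for named genes and was chosen after its values were seen (log2 fold change -0.70, SE 0.21, limma adjusted p = 0.0449). In knockdown against overexpression 1 was higher and 2 were lower. ELK4 was higher by 0.53 (SE 0.11, limma adjusted p = 0.0108), a call that ended without knockdown replicate 2 (adjusted p = 0.0503). ATXN1L, a partner of CIC, fell by 0.48 (SE 0.11, limma adjusted p = 0.0143), a call that ended without knockdown replicate 3 (adjusted p = 0.0527). ETV3, an ETS repressor, fell by 0.52 in the same comparison (SE 0.12, limma adjusted p = 0.0179), which ended without knockdown replicate 3, overexpression replicate 2 or overexpression replicate 3 (highest p 0.0702 after adjustment). Of 5 genes listed with the ubiquitin ligase that degrades ETV1, ETV4 and ETV5, DET1 fell in knockdown against wild type by 0.50 (SE 0.12, limma adjusted p = 0.0184). That call was lost without knockdown replicate 2, knockdown replicate 3, wild type replicate 1 or wild type replicate 2 (highest p 0.0746 after adjustment). Against overexpression its log2 fold change was -0.40 (SE 0.12, limma adjusted p = 0.0466), a call that ended in 8 of 9 fits on 8 arrays (highest p 0.159 after adjustment). The ligase gene COP1 itself passed in no comparison, and nor did DCAF5 or CUL4A.

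Of 7 tested p38 and JNK kinase genes, 2 fell in knockdown against wild type and none was called in overexpression, where 1 had an unadjusted limma p under 0.05. MAP2K6, which activates p38, fell by 0.69 (SE 0.13, limma adjusted p = 0.00641). MAPK9, a JNK gene, fell by 0.24 (SE 0.07, limma adjusted p = 0.0428) and kept its call only without overexpression replicate 1 or overexpression replicate 2, and the adjusted p reached 0.123 in the other 7 fits on 8 arrays. MAPK13, a p38 gene, fell by 0.89 in knockdown against overexpression (SE 0.20, limma adjusted p = 0.0128), a call that ended without overexpression replicate 3 (adjusted p = 0.0621), and MAPK12 passed in no comparison. None of 11 genes of the CREB and cAMP list was called against wild type in either treatment, with an unadjusted limma p under 0.05 for 5 in knockdown and 2 in overexpression. NR4A1, an immediate early nuclear receptor, stood at 1.33 in log2 fold change for overexpression against wild type (SE 0.32, limma adjusted p = 0.114). In knockdown against overexpression CREM, a CREB family factor, fell by 0.52 (SE 0.11, limma adjusted p = 0.0102), and PDE4D and SIK1 were higher, by 0.65 (SE 0.17) and 0.58 (SE 0.14). The PDE4D call ended without knockdown replicate 2, knockdown replicate 3, overexpression replicate 1 or overexpression replicate 2 (highest p 0.0954 after adjustment), and that of SIK1 without knockdown replicate 2, knockdown replicate 3, overexpression replicate 1 or overexpression replicate 3 (highest p 0.0768 after adjustment).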

How the data were processed

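Biotin-labelled total RNA of 9 HEK293 samples went onto 9 oligonucleotide arrays according to the labels' protocols. The authors deposited 1 linear intensity per probe set, made with MAS5 as named in the submitters' processing notes, without version or settings. Every array had a 2% trimmed mean of 1500.2, so the scaling hides any change in RNA per cell, and fewer cells and less RNA per cell cannot be told apart.

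Columns were matched to samples by accession and grouped by title. Leaving aside 62 control probe sets, those with a mean log2(signal + 1) at or above the median (7.56), 27307 in all, were tested two-sided with limma 3.58.1 in R 4.3.3 (lmFit, eBayes with trend) on all 9 arrays together, with 6 residual degrees of freedom and Benjamini-Hochberg adjusted p-values. The log2(signal + 1) scale understates changes of low genes. The fit was tested on simulated data. An exact permutation test of 3 against 3 arrays cannot go below p = 0.1 and was not used, and the 3 arrays per group limit precision.

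Of 54675 probe sets, 41097 had 1 symbol in the platform annotation, 1801 several and 11777 none, and only the first were named; 41043 of them matched a RefSeq gene (GRCh38.p14) by Entrez ID. The members and lists were chosen with earlier results of these data known, and the motifs with the sequences seen as well. Named were all members, KAT8, up to 4 genes of smallest p per list, and the 3 genes most correlated with ETV1, DUSP1 and DUSP6. No 2 arrays held identical values, and correlations within groups ran from 0.973 to 0.985. Replicate numbers were checked as pairs by correlating deviations from group means. Every pair of knockdown with wild type (0.36, 0.14 and 0.14) and with overexpression (0.35, 0.24 and 0.11) was over 0.1, so a fit with the replicate number as a block was also made. Overexpression and wild type were at 0.45, 0.16 and 0.083, so only their replicate 3 pair was below that bound. Other settings were a pseudocount of 16, no filter, quantile normalization, no trend, a term for replicate 1, leaving out each array, and dimmer probe sets. A floor at the filter value and a fit without replicate 1 were added after seeing the data. Figures were drawn with matplotlib 3.10.9.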

Additional observations from a re-analysis of the deposited data

How the results depend on the processing

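Over the 10 genes and 3 comparisons, 227 of 252 values stayed the same under the other settings, and 239 of 270 did when 1 array was left out. Staying the same means keeping direction and side of the threshold. For ETV1 and DUSP1 against wild type, which have no test, it means keeping direction and shifting by less than the standard deviation within groups. Of their values 9 shifted by more, 8 in dimmer probe sets and 1 in the fit without replicate 1. The number of ERK feedback genes called, 2 for knockdown against wild type, 3 for overexpression against wild type and 3 for knockdown against overexpression, ran from 1 to 2, 1 to 3 and 1 to 3 when 1 array was left out. With the dimmest tested probe set of each gene the count for knockdown against wild type was 4. It then took in ETV5 and DUSP6, whose dimmer sets reached the filter only with their overexpression arrays counted. With replicates 2 and 3 alone the count for knockdown against overexpression was 1. In that fit without replicate 1, added after seeing the data, the adjusted p of DUSP6 was 0.0588 in overexpression against wild type and 0.0699 in knockdown against overexpression, and that of SPRY2 was 0.104 in knockdown against overexpression. SPRY2 in that comparison also missed the threshold with no filter (0.0631) and with no trend (0.0637). With the replicate block the calls over all probe sets numbered 7637 for knockdown against wild type, 1022 for overexpression against wild type and 7334 for knockdown against overexpression, against 4289, 130 and 3963 without it. With the term for replicate 1 they numbered 7706, 1109 and 7425. The block brought DUSP5 in overexpression against wild type past the threshold (adjusted p = 0.0481), where the replicate 3 pair did not meet the bound for pairing. Beside DUSP1 the block changed no other call of a member. The brighter KAT8 probe set in overexpression passed with the block (0.0381) and with the replicate 1 term (0.0478). The overexpression count was 70 with no trend and 220 with replicates 2 and 3 alone. Without 1 array the counts ran from 2213 to 4624, 25 to 97 and 2040 to 4168. Values that turned sign had not passed the test. DUSP4 in knockdown against wild type was 0.15 in its dimmer probe set and -0.16 to 0.11 without 1 array, and in overexpression -0.014 without replicate 1. SPRY1 in overexpression was 0.41 in its dimmer set and -0.15 to 0.074 without 1 array. ETV1 in knockdown against overexpression was 0.023 after quantile normalization and -0.15 to 0.046 without 1 array, and SPRY4 in knockdown against wild type was -0.087 without replicate 1. The cause of these changes was not tested.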
